A study of Mus musculus with 36 samples.

Results

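In the frontal cortex of the mouse, 222 circRNAs were found that had no circular read reported in any hippocampus sample. A circRNA was counted among them when it had reads in at least 2 of the 3 replicates of 1 time point in frontal cortex and was either not listed for hippocampus or 0 in all 18 hippocampus samples. They were 4.63% of the 4790 frontal cortex circRNAs that passed the rule on replicates, and the circRNAs listed in either tissue numbered 33261. These circRNAs were selected on their counts in both tissues, so the absence from hippocampus is a description here and was not tested.

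The samples were frontal cortex and hippocampus of male C57BL/6 mice under a light-dark cycle, 18 of each tissue. The study's methods name the substrain C57BL6/N and an age of 9 to 10 weeks. Each tissue was taken at 6 zeitgeber times (ZT, hours after lights on): ZT1, ZT5 and ZT9 in the light phase and ZT13, ZT17 and ZT21 in the dark phase, with 3 replicates each. The labels name no treatment, mice of different time points were different animals, and the labels do not say whether both tissues came from the same animals, so p-values measure the spread between these samples. The value in each sample is the count of circular reads, which cross the head-to-tail junction of a circle, in ribosome-depleted total RNA.

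Circular RNAs arise when a downstream splice donor is joined back to an upstream splice acceptor of the same transcript, which closes the exons between them into a ring. The ring has no free ends, is not degraded by exonucleases and accumulates in neurons, and many genes that code for synaptic proteins form several circRNAs. Only the back-splice junction tells such an RNA from its linear host transcript.

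The junctions of 9 of the 12 circRNAs with most reads are shown, because this stretch is what identifies each of them; the other 3 did not have both ends on annotated exon boundaries. Each holds the last 15 bases of the last exon in lower case, followed in capitals by the first 15 bases of the first exon, 5′ to 3′ on the strand of the host gene (GENCODE vM21 transcripts, GRCm38).
Dpp10, exon 5 to exon 2: tacgacgttaagcagGAACTAGGAAGTAAC
Dpp10, exon 17 to exon 15: cagacaacccatcaaTTACTTTCTGAGCAC
Arhgap10, exon 15 to exon 2: gaagcagtatctgagGTCTGTCAGCTGCCC
Fam120a, exon 3 to exon 2: ctcgcctcactgaagGTTGCACAGAGCATT
Fgf12, exon 3 to exon 2: tatctctacagctcaAACCCCAGCTGAAAG
Ccne2, exon 11 to exon 5: tatttggctttgctgAATTGTTGGCCACCT
9130024F11Rik, exon 3 to exon 2: ttctcgcccagtctgGGGTAAGCTCTGAGG
R3hdm1, exon 18 to exon 17: cagccctcaccacagCCTGTTGGTCCTCTG
L3mbtl4, exon 4 to exon 2: caccttcaaagcgagATATGGAGGGGATCT

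The circRNA with most reads came from Dpp10, which codes for an auxiliary subunit of Kv4 potassium channels. It joined exon 5 to exon 2 (chr1:123650288-123905176, minus strand) into a circle of 381 spliced bases and had 46 circular reads in 10 of the 18 frontal cortex samples. Its counts were 13 and 6 in ZT21 replicates 1 and 2, and 5 in both ZT17 replicate 2 and ZT5 replicate 3. The 13 reads of ZT21 replicate 1 were the highest count of any of the 222 circRNAs in a sample. A second Dpp10 circle of exons 15 to 17 (chr1:123376627-123384332) had 27 reads in 6 samples, with 6 in ZT9 replicate 2, 6 in ZT21 replicate 2 and 5 in ZT1 replicate 1. Both Dpp10 circles thus had reads in light and in dark samples, with replicates of the same time point at 0. The Dpp10 circRNA with most hippocampus reads (chr1:123402833-123433085) had 20 reads in frontal cortex and 9 in hippocampus.

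A circRNA on the minus strand of chromosome 17 (chr17:66257932-66262475), where no gene of GENCODE vM21 or RefSeq lies on either strand, had 39 reads in 10 samples. Of these, 11 were in ZT21 replicate 2 and 8 in ZT9 replicate 2, and the other samples had 4 or fewer. Another without a host gene on its strand (chr4:24238840-24240623, minus strand) had 28 reads in 6 samples, of which 13 were in ZT17 replicates 2 and 3. It lies within the RefSeq model Gm27243 and overlaps the RefSeq model Gm11892.

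Snhg14, a long noncoding RNA that hosts clusters of repeated small nucleolar RNAs, gave the circRNA found in most samples, 12 of 18 (chr7:59352999-59451378). Each of these samples had 2 or 3 reads, 28 in all, in 5 of the 6 time points with at least 2 replicates. Its ends were not both on annotated exon boundaries, and because the locus consists of near-identical repeats, the assignment of its reads is uncertain. The same holds for the other 3 Snhg14 circRNAs of this set, with 8, 6 and 4 reads. Snhg14 formed 429 circRNAs in frontal cortex and 485 in hippocampus.

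Arhgap10, which codes for a GTPase-activating protein, had a circle of exons 2 to 15 (chr8:77358547-77450923) with 19 reads in 9 samples. All 3 replicates of ZT13 had 2 reads of it, and no sample had more than 3. A circle of exons 2 and 3 of Fam120a, which codes for an RNA-binding protein (chr13:48945942-48949303), also had 19 reads, 7 of them in ZT17 replicate 2. Fgf12 (exons 2 and 3, chr16:28372913-28398388) codes for an intracellular fibroblast growth factor that binds voltage-gated sodium channels, and its 19 reads reached 5 in ZT13 replicate 2. Ccne2 (exons 5 to 11, chr4:11193926-11202347), which codes for cyclin E2, had 19 reads, with 5 in ZT13 replicate 1 and 4 in ZT21 replicate 2. The remaining 3 of the 12 had 18 reads in 7 samples each, with 4 or fewer in any sample. They were a circle of exons 2 and 3 of the noncoding RNA 9130024F11Rik (chr1:57002504-57004290), one of exons 17 and 18 of R3hdm1, an R3H domain protein (chr1:128190638-128193756), and one of exons 2 to 4 of L3mbtl4, an MBT domain protein (chr17:68314373-68392936).

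**Figure D1:**
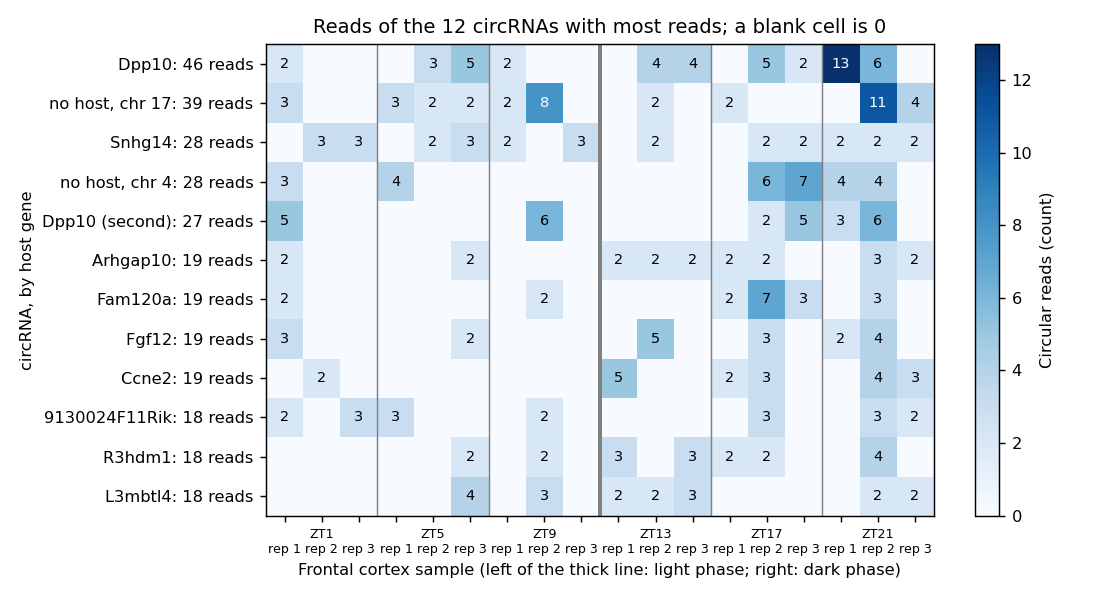
Circular reads (count, colour and number) of the 12 circRNAs found only in frontal cortex with most reads, in rows, over the 18 frontal cortex samples, in columns by time point and replicate; blank cells are 0. The counts reach 13 for Dpp10 in ZT21 replicate 1, and each circRNA is at 0 in at least 6 of the 18 samples.

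Most of the 222 were far rarer than these. They had between 4 and 46 reads over the 18 samples, with a median of 7, against a median of 25 for the other frontal cortex circRNAs that passed the rule on replicates. With 4 reads, the fewest the rule allows, there were 59 circRNAs, and 52 had 10 or more. In all they had 1755 circular reads, which was 0.485% of the reads of frontal cortex. Found in only 2 samples were 92 of them, in 3 samples 70, and in 6 or more samples 20. The rule was met at 1 time point by 208 and at more than 1 by 14.

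How many circRNAs of frontal cortex were without a hippocampus read depended on how many reads they had. Of 145 frontal cortex circRNAs with 4 reads, 59 (40.7%) were not found in hippocampus, and of those with 5 or 6 reads 50 of 246 (20.3%). With 7 to 10 reads it was 72 of 589 (12.2%), with 11 to 20 reads 36 of 1197 (3.01%), and with 21 to 50 reads 5 of 1336 (0.374%). None of the 1277 circRNAs with 51 or more reads was among them. The smallest count above 0 in both tissues was 2, so a 0 stands for a circRNA that was not reported and not for an absence of the molecule. In tissue RNA, fewer cells of a type and less RNA per cell cannot be told apart.

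**Figure D2:**
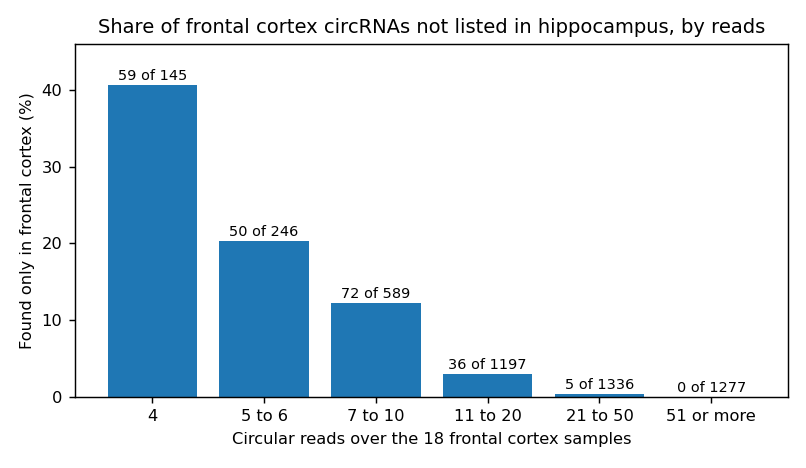
Share (%) of frontal cortex circRNAs that were found only there, by their circular reads over the 18 frontal cortex samples; numbers over the bars give the circRNAs found only there of all in the class. The share is 40.7% at 4 reads and 0 of 1277 at 51 or more.

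Just outside the rule were 198 circRNAs with 2 hippocampus reads in all. Those with most frontal cortex reads came from Rarb, which codes for a retinoic acid receptor (chr14:16818690-16819151, 51 frontal cortex reads in 14 samples), from Cobl, an actin nucleator (chr11:12365105-12378359, 44 reads in 13 samples), and from Arhgap10 (chr8:77344640-77411128, 44 reads in 12 samples). Each of these 3 had more frontal cortex reads than all but the first Dpp10 circle of the 222, and 2 reads in 1 hippocampus sample. A total of 302 frontal cortex circRNAs that passed the rule on replicates were found in a single hippocampus sample, 75 of them in ZT1 replicate 3, the deepest with 73252 circular reads. On the other side, 9307 frontal cortex circRNAs had no hippocampus read but never reached 2 replicates of a time point, and 8470 of these were found in 1 sample. Among them was an App circRNA, from the amyloid precursor protein gene (chr16:85015232-85025497), with all of its 42 reads in 1 sample. The hippocampus had 431196 circular reads and frontal cortex 362041, and the rule turned round gave 472 circRNAs found only in hippocampus, with a median of 7 reads.

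Over the day, the 222 circRNAs were present in numbers of 14 to 38 in a light phase sample and 26 to 78 in a dark phase sample. Their share of circular reads was between 0.282% and 0.455% in the 9 light phase samples (median 0.360%) and between 0.417% and 0.716% in the 9 dark phase samples (median 0.576%), so the ranges overlapped. The shares at ZT17 were 0.671% (95% Wilson interval 0.573 to 0.785, counting error only), 0.716% (0.625 to 0.819) and 0.602% (0.508 to 0.714) in replicates 1, 2 and 3, and ZT21 replicate 2 had 0.609%. The rule was met by 21 of them at ZT1, 20 at ZT5 and 17 at ZT9, against 39 at ZT13, 79 at ZT17 and 67 at ZT21. Relative to all frontal cortex circRNAs that met the rule on replicates at the same time point, this was 0.926%, 0.908% and 0.901% in the light phase and 1.72%, 2.67% and 2.34% in the dark phase.

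These shares cannot be separated from the rule, because a circRNA entered through the time point at which it had reads. When at each time point only the circRNAs that met the rule at another time point were counted, the share was between 0.154% and 0.290% in light phase samples and between 0.125% and 0.256% in dark phase samples. Frontal cortex circRNAs found in a single hippocampus sample made up 0.567% to 1.05% of the reads in light phase samples and 0.694% to 1.04% in dark phase samples. The 3197 shared circRNAs with no more than 46 reads made up 13.5% to 17.2% in light phase samples and 15.7% to 19.3% in dark phase samples, and the 3 samples of ZT17, at 18.6% to 19.3%, were above every light phase sample. Depth moved in part with the count: the dark phase samples held 14379 to 34803 circular reads and the light phase samples 8107 to 23137, while ZT1 and ZT13 had 2269 and 2271 circRNAs that met the rule on replicates, with 21 and 39 of the set. Its part in the difference was not tested. In hippocampus, the circRNAs found only there were 5.36% of those that met the rule on replicates at ZT1 and 1.99% to 3.68% at the other time points.

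**Figure D3:**
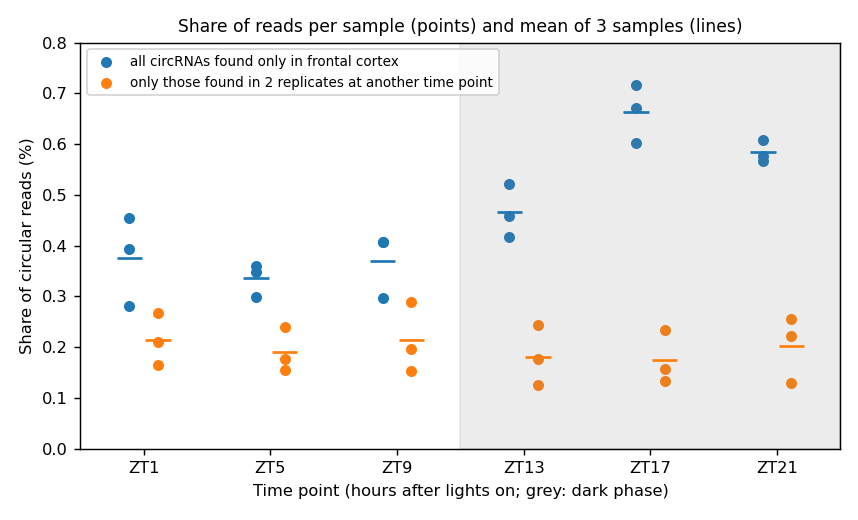
Share of circular reads (%) per frontal cortex sample at each zeitgeber time, as points with the mean of 3 samples as a line, for all 222 circRNAs (blue) and for those that met the rule on replicates at another time point (orange); grey marks the dark phase. Blue points reach 0.716% at ZT17, and orange points stay between 0.125% and 0.290%.

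For single circRNAs, change over the day was tested with edgeR over all frontal cortex circRNAs that had enough reads. None of the 222 passed the filter on low counts. In that test 518 circRNAs were compared, of which 0% passed an adjusted p-value of 0.05 between dark and light phase, with 16 at an unadjusted p-value under 0.05, and 0.193% (1 circRNA) over the 6 time points. A test without the filter was also run. For the 222, it used again the counts through which each entered the set at its time point. None of the 222 passed an adjusted p-value of 0.05 in it, between the phases or over the 6 time points. No p-value from it is given for them, and their counts stand as a description.

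The circRNAs of the set that ranked first between the phases in the test without the filter came from Smarca2, Adgrl2 and Ccne2. A Smarca2 circle of exons 2 to 5 (chr19:26619684-26640649), from the gene of a SWI/SNF ATPase, had 2 reads in ZT13 replicate 1, 4 in ZT17 replicate 2, and 2 and 3 in ZT21 replicates 1 and 2. An Adgrl2 circle (latrophilin 2, chr3:148846849-148859533) had 2 or 3 reads in 4 dark phase samples. Neither had a read in the light phase, and the Ccne2 circle had 2 reads in 1 light phase sample and 17 in 5 dark phase samples. The Smarca2 and Adgrl2 circles met the rule at ZT21 and the Ccne2 circle at ZT17 and ZT21. The rule thus chose them through dark phase reads. Over the 6 time points, those that ranked first came from Rabgap1l, a GTPase-activating protein for Rab proteins, Macf1, a cytoskeletal crosslinker, and the noncoding RNA 3830408C21Rik. The Rabgap1l circle had 7 and 3 reads in ZT17 replicates 1 and 2 and none elsewhere. The Macf1 circle had 2, 6 and 2 reads in the 3 replicates of ZT21 and none elsewhere. The 3830408C21Rik circle had 3 reads in each of ZT9 replicates 2 and 3 and none elsewhere. All 3 thus had reads only at the time point at which they met the rule.

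In structure, 160 of the 222 (72.1%, 95% Wilson interval 65.8 to 77.6) had both ends on boundaries of exons of 1 annotated transcript, 45 (20.3%) lay in a gene but had an end off the boundaries, and 17 (7.66%) had no host gene on their strand. Rare circRNAs were compared with rare ones: of the 181 with 4 to 10 reads, 70.2% (63.1 to 76.4) ended on exon boundaries, against 83.0% (80.2 to 85.4) of the 799 circRNAs with 4 to 10 frontal cortex reads that were also listed in hippocampus. Among these, 6.63% against 3.00% had no host gene, and 8.84% against 4.76% spanned more than 100 kb of genome. Of the 472 circRNAs found only in hippocampus, 75% ended on exon boundaries. The member of the set with the longest span came from Celf2, which codes for an RNA-binding splicing regulator, and joined exons 3 to 7 over 346727 bases (chr2:6615688-6962414, 7 reads). The shortest lay in Shc4, an adaptor protein gene, and spanned 144 bases (chr2:125673390-125673533, 4 reads).

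Those on exon boundaries held a median of 4 exons and 495 spliced bases, and the middle 50% lay between 343 and 765 bases. The median was 4 exons and 576 bases in the 3197 shared circRNAs of no more than 46 reads. Of the 160, 1 was a circle of a single exon (0.625%), against 4.93% of the 2699 shared ones on exon boundaries. At 4 to 10 reads, the first exon was exon 2 of the transcript in 25.2%, against 25.8% of the shared ones, and the intron before the circle had a median length of 10575 bases, against 9896.

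**Figure D4:**
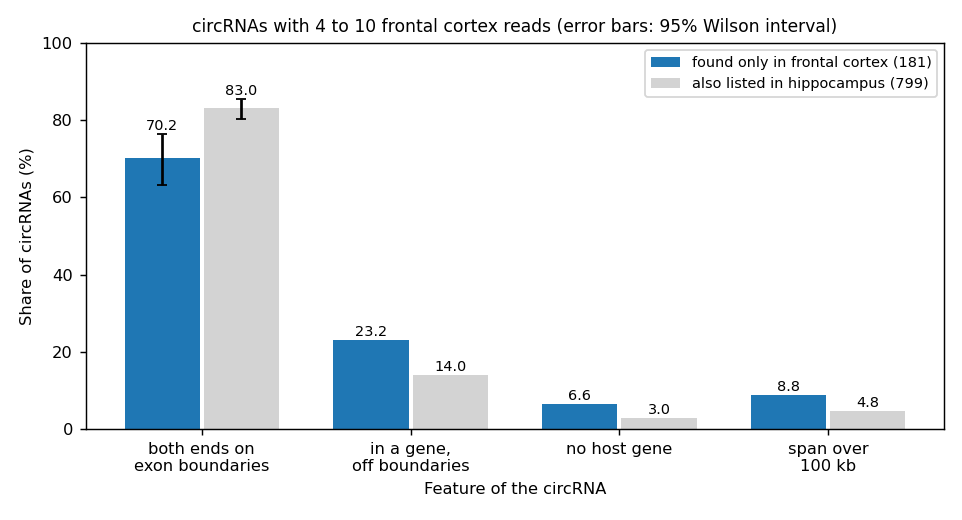
Share (%) of circRNAs with both ends on exon boundaries, in a gene but off the boundaries, without a host gene, and with a span over 100 kb, for circRNAs with 4 to 10 frontal cortex reads that were found only in frontal cortex (blue, 181) or also listed in hippocampus (grey, 799). Error bars on the first pair are 95% Wilson intervals; the blue bar is at 70.2% and the grey bar at 83.0%.

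Absence from hippocampus concerned the pair of ends and not always the splice sites themselves. In 43 of the 222 (19.4%) the start and the end were each used by another circRNA found in hippocampus, in 105 only 1 of them was, and in 74 (33.3%) neither was. Among the shared circRNAs with no more than 46 reads, 36.4% had both ends and 19.1% had neither end in another hippocampus circRNA. The groups were not matched on reads here: 181 of the 222 had 4 to 10 reads, against 799 of these 3197. The Ccne2 circle was a case with a shared start: the circRNA chr4:11193926-11199431 of the same gene had 4 reads in frontal cortex and 5 in hippocampus. For Top1, which codes for topoisomerase I, the circle found only in frontal cortex (chr2:160670100-160687743, exons 3 to 6) had 15 reads in 6 samples, and a longer one with the same start (chr2:160670100-160705321) had no frontal cortex read and 18 hippocampus reads in 5 samples. In 3 of the 222, a hippocampus circRNA had both ends within 5 bases.

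Since Cdr1as, the brain circRNA with most reads, is known for binding miR-7, the spliced sequences were searched for the site of its seed. The mature miRNA is shown with its seed, bases 2 to 8, in capitals (RefSeq, GRCm38.p6).
mmu-miR-7a-5p: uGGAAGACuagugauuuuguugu
The reverse complement of the seed, GTCTTCC, was searched on the strand of the host gene and occurred in 8 of the 160 spliced sequences (5.0%), once in each, against 6.74% of the 2699 shared ones. At 4 to 10 reads, the site occurred in 3.15% of the sequences of the set and in 4.98% of the shared ones. Spliced length was not matched, and the difference was not tested. Among the 8 were circRNAs of L3mbtl4, Slc16a14, Abi3bp, Hecw1, Nbea, Sox5 and A530072M11Rik.

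By host gene, 205 of the 222 were assigned to 180 genes, and 18 of these genes had more than 1. Celf2, Dpp10 and Snhg14 had 4 each and Smarca2 had 3. The 4 Celf2 circles had 5 to 8 reads each, and the 3 Smarca2 circles had 11, 10 and 9. For 14 of the 180 host genes, no circRNA at all was listed in hippocampus. Counting only the reads of the circRNA found only in frontal cortex, those with most were 9130024F11Rik with 18 reads, Aatf, a transcription factor that counters apoptosis, with 13, 1700015F17Rik with 12, Ptges3l with 11 and Syt6, a synaptotagmin, with 10. The Ptges3l circle had an end off exon boundaries and lay within 2 genes on its strand, so its host is uncertain. Aatf had 5 and 2 reads in ZT17 replicates 1 and 2 and 3 in both ZT1 replicate 1 and ZT9 replicate 2. Syt6 had 2 and 3 reads in ZT13 replicates 1 and 2, 2 in ZT5 replicate 1 and 3 in ZT9 replicate 1. Each of the 14 had 1 circRNA of the set, and with other frontal cortex circRNAs Aatf had 24 reads and Ptges3l 13. All 180 genes were chosen through a circRNA absent from hippocampus. The share without any hippocampus circRNA over all frontal cortex host genes was not counted.

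The remaining comparison used reads that the rule did not use: the other circRNAs of the same host genes. The genes were still picked by the rule from the same 36 samples, so their choice was not independent of these values. Of the other circRNAs, 74 from 42 host genes had enough reads over the 36 samples. By edgeR's quasi-likelihood test, 23 were higher in frontal cortex, 2 were lower and 49 did not pass an adjusted p-value of 0.05, with a median log2 difference of 0.12. Of all 710 circRNAs tested, 14.1% were higher and 16.5% lower in frontal cortex, with a median of -0.02. An Arhgap10 circle (chr8:77384751-77411128) had 352 reads in frontal cortex and 76 in hippocampus, a log2 difference of 2.47 ± 0.24 (SE, adjusted p-value 4.45e-10). A Kcnh5 circle (chr12:75114191-75154281), from the gene of an ether-à-go-go potassium channel, had 196 and 32 reads, a difference of 2.73 ± 0.32 (adjusted p-value 1.38e-08). Of the 2 that were lower, 1 came from Ptms (parathymosin), with 173 reads in 7 frontal cortex samples and 336 in 13 hippocampus samples. Its log2 difference was -3.41 ± 0.89 (SE, adjusted p-value 0.00437). The other, from Nrgn (neurogranin), had no frontal cortex read and 130 reads in 8 hippocampus samples, so it passed the filter through hippocampus alone and its direction was fixed. A further Ptms circle with the same start (chr6:124914408-124914704) had 316 reads in frontal cortex and 245 in hippocampus. It did not pass, with a log2 difference of 0.56 (adjusted p-value 0.107). Summed over Ptms circRNAs listed in both tissues, frontal cortex samples had a median of 12.9 and up to 282 reads per 10000 circular reads. Hippocampus samples had a median of 17.3 and up to 151. Of the 73 with reads in both tissues, 23 were higher and 1 lower, against 14.1% and 16.4% of 709.

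When reads were summed per host gene over circRNAs listed in both tissues, which leaves out all 222, 65 of the 180 host genes could be tested among 742 genes. A total of 21 (32.3%) were higher in frontal cortex, 1 (1.54%) was lower and 43 did not pass, with a median log2 difference of 0.24. Of all 742 genes, 14.4% were higher and 15.8% lower, with a median of -0.02. For the host genes of circRNAs found only in hippocampus, 119 were tested, of which 6 (5.04%) were higher and 32 (26.9%) lower in frontal cortex, with a median of -0.18; 14 genes belonged to both sets. This comparison was chosen after the data were seen, and both sets of genes were picked by the rule from the same samples. The difference between these shares was not tested.

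Among the host genes that were higher, the circRNAs of Kcnh5 listed in both tissues had 4.17 to 14.7 reads per 10000 circular reads in frontal cortex (median 8.76) and 0 to 3.19 in hippocampus (median 1.16), ranges that did not overlap, and a difference of 2.66 ± 0.25 (adjusted p-value 1.31e-11). Its 2 circles found only in frontal cortex, of exons 4 to 7 and 3 to 7, shared their end in exon 7 and had 14 and 7 reads.

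Arhgap10 had 28.2 to 56.7 reads per 10000 in frontal cortex (median 32.8) and 4.18 to 14.8 in hippocampus (median 6.89). These ranges did not overlap either, and the difference was 2.30 ± 0.12 (adjusted p-value 8.67e-20). The noncoding RNA Gm28928 (1.92 ± 0.24, adjusted p-value 1.64e-08), Ctnna2, the neuronal alpha-catenin (1.70 ± 0.38, adjusted p-value 0.00059), and Pknox2, a homeobox transcription factor (1.24 ± 0.27, adjusted p-value 0.000458) were also higher. Of the 21, 15 differed by 0.24 to 0.86. The single gene that was lower was Nbea, which codes for neurobeachin, a protein of vesicle trafficking, with 13.3 to 28.6 reads per 10000 in frontal cortex and 16.3 to 31.6 in hippocampus and a difference of -0.34 ± 0.10 (adjusted p-value 0.00977). Dpp10 was not tested, since its circRNAs of both tissues had 63 reads in frontal cortex and 30 in hippocampus.

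**Figure D5:**
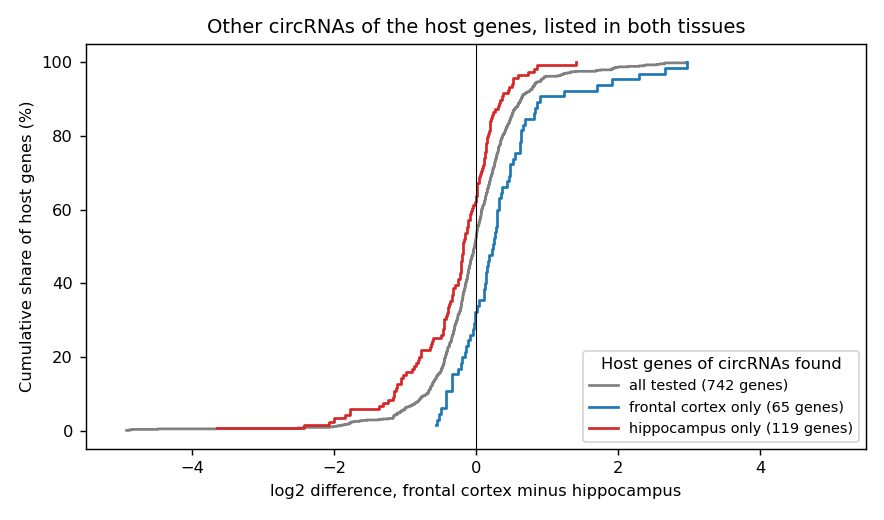
Cumulative share (%) of host genes against the log2 difference of their circRNAs listed in both tissues, frontal cortex minus hippocampus, for all 742 tested genes (grey), 65 host genes of circRNAs found only in frontal cortex (blue) and 119 host genes of circRNAs found only in hippocampus (red). The medians are -0.02, 0.24 and -0.18.

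The dissection of the tissues was described by host genes that mark their cells. Of 20 genes that mark hippocampal fields, 11 had a circRNA, and these held 0.0870% of the circular reads in frontal cortex and 0.305% in hippocampus, while 7 of 17 genes of striatal medium spiny neurons had one, with 0.0718% and 0.0204%. The striatal share was between 0.0247% and 0.112% in frontal cortex samples and between 0 and 0.0547% in hippocampus samples. Within the striatal list, Meis2 had 137 reads in frontal cortex and 45 in hippocampus over its circRNAs listed in both tissues. Rarb had 67 and 2 reads over all its circRNAs, so the striatal share rested largely on single genes. Genes of cortical projection neurons and layers held 0.319% and 0.246%. Of the circRNAs that passed the rule on replicates in frontal cortex, 3 of 21 from the cortical list belonged to the set (among them Hs3st4, a heparan sulfate sulfotransferase, with 10 reads, and Sox5, a transcription factor of deep layers, with 7), 0 of 6 from the hippocampal list, and 1 of 6 from the striatal list. The last was a Rarb circle of exons 2 and 3 (chr14:16508934-16548562) with 10 reads, 3 and 2 of them in ZT17 replicates 1 and 2. The part of the tissue taken in these values was not tested.

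Among other cells, interneuron, oligodendrocyte and vascular genes had 0 of 3, 0 of 5 and 0 of 1 circRNAs in the set, and microglia genes had no circRNA that passed the rule on replicates. Astrocyte genes had 1 of 5, from Bmpr1b, a receptor of bone morphogenetic proteins, with 7 reads. For comparison, the set was 4.63% of all.

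In the synapse, postsynaptic scaffold genes gave 5 of their 64 circRNAs to the set (7.81%). They were 2 circles of Lrrc7 (densin-180) with 14 and 8 reads, and circles of Magi1 with 7, Dlg1 (SAP97) with 5 and Magi2 with 4. Presynaptic genes gave 2 of 95 (2.11%), from Rims1 and Erc2 of the active zone, with 5 reads each. Synaptic adhesion genes gave 3 of 97, from Adgrl2 with 11 reads and Ptprd and Cntnap4 with 6 each, and glutamate receptor genes gave 2 of 31, from Grm4 with 9 and Gria2 with 5.

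Ion channel genes gave 5 of 107 (4.67%), all of them potassium channels: Kcnh5 with 14 and 7 reads, Kcnh1 with 11, the sodium-activated channel Kcnt2 with 7 and the calcium-activated channel Kcnma1 with 5. Chromatin regulator genes gave 4 of 134 (2.99%), 3 of them from Smarca2 and 1 from the histone methyltransferase Setd2 with 4 reads. Circadian clock genes gave 1 of 7, from Btrc, the F-box protein that targets PER proteins for degradation, with 2 and 3 reads in ZT21 replicates 1 and 2. With so few circRNAs a list, these counts are descriptions.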

How the data were processed

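The authors mapped total RNA reads to GRCm38 with BWA, searched them for head-to-tail junctions with CIRI2 (default settings), and deposited the raw count of circular reads of each circRNA in each sample, without normalization or pooling. A further hippocampus column (1) that no label describes was not used. Over all circRNAs listed, frontal cortex samples held 8107 to 34803 circular reads and hippocampus samples 6754 to 73252. Sequenced totals and linear counts were not used here, so shares are shares of circular reads.

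Time points came from the clock times of the labels and the light schedule. Hosts and exons were assigned by coordinate and strand with GENCODE vM21 (GRCm38). Tests used edgeR 4.0.16 in R 4.3.3 (quasi-likelihood test after TMM normalization and filterByExpr at default settings, p-values adjusted by Benjamini-Hochberg over all features tested), on 18 frontal cortex samples or on all 36 samples, and were tested on simulated data. DESeq2 1.42.0 was an alternative, beside other scalings, no filter, a replicate block, other rules of detection and leaving out each sample. Python 3.11.15 was used for the rest.

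The set of circRNAs, the gene lists and the tests were chosen with earlier results of these data known. Named were the 12 circRNAs with most reads, the 5 found in most samples, up to 3 that ranked first in each comparison over the day without a filter, the 5 host genes with most circRNAs, the 5 host genes without hippocampus circRNAs that had most reads, up to 3 circRNAs per gene list, the longest and the shortest, up to 3 on each side of the rule and, for the hosts of the 12, the circRNA with most hippocampus reads. Other names were chosen after their values were seen. Some items that this rule names are not reported here.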

Additional observations from a re-analysis of the deposited data

Results flagged for a closer look

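Of 26 sets of values searched for 1 sample standing apart, 1 was flagged, and chance flags about 1 in 20. The shared circRNAs of Gm28928 reached 27.1 reads per 10000 in frontal cortex ZT9 replicate 3, the highest of the 9 light phase frontal cortex samples, and this sample had the fewest circular reads of frontal cortex, 8107. Without it, the difference of Gm28928 between the tissues remained past the threshold.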

How the results depend on the processing

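The number of circRNAs found only in frontal cortex rested on the rule. It was 15 when all 3 replicates of a time point were required, 1059 when any 2 frontal cortex samples sufficed, and 1151 when only hippocampus circRNAs found in 2 replicates of a time point counted. With 1 of the 36 samples left out it was between 171 (without frontal cortex ZT17 replicate 2) and 297 (without hippocampus ZT1 replicate 3). It was 209 with all samples thinned to 6754 reads. The share of circular reads was 0.201% when at each time point only circRNAs that met the rule at another were counted, and between 0.397% and 0.489% with a sample left out. Both ends were on exon boundaries in 80.8% of those with at least 10 reads. DESeq2 called 1 frontal cortex circRNA between the phases, against 0 with edgeR, also with each sample left out. Over the 6 time points, 12 circRNAs were called without the filter, and 0 to 1 with a sample left out (0 without ZT1 replicate 1 or 3). Of other circRNAs of the host genes, DESeq2 called 37 higher and 5 lower, 4 were lower without the filter, and with a sample left out 21 to 27 were higher and 0 to 4 lower (0 without hippocampus ZT1 replicate 3 or ZT21 replicate 2). Summed per host gene, 20 to 23 were higher and 1 to 2 lower with a sample left out. No host gene reversed, and 14 of the 22 called lost no call, among them Kcnh5 and Arhgap10; Csmd2 lost its call in 11 of 42 alternatives and Nav3 in 6. The mean correlation of same-numbered samples was between -0.016 and 0.003. Such values cannot decide whether both tissues came from the same animals, and the main tests did not pair them. With a replicate block, 0 circRNAs were called between the phases, 1 over the time points, 23 other circRNAs of the host genes were higher and 2 lower, and 21 host genes were higher and 1 lower. The causes were not tested.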
